A study of Mus musculus with 16 samples.

Results

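The mRNAs of the COP9 signalosome were followed in protrusions (Ps) and cell bodies (CB) of NIH/3T3 cells, an established mouse embryonic fibroblast line. The set was selected on the enrichment of *Cops2* seen earlier in these libraries and completed by name. It holds *Cops2*, *Cops3*, *Cops4*, *Cops5*, *Cops6*, *Cops7a*, *Cops7b*, *Cops8* and *Gps1*, and all 9 were found among the 12900 RNAs measured. The 16 libraries fall into 4 groups of 4 replicates, Ps and CB of 2 stable lentiviral lines. Both lines express a reporter with the human β-globin coding sequence under doxycycline control. In the HBB line it carries the β-globin 3′ untranslated region (UTR), whose RNA is the control, and in the Pkp4 cUTR line that of mouse *Pkp4*, an RNA localized to protrusions. Each construct is represented by a single line. All groups were induced with 1 µg/ml doxycycline for 3 days, plated for 2 h on filters with 3.0-µm pores, given lysophosphatidic acid for 1 h to draw out protrusions and treated for 10 min with paraformaldehyde at 0.3%. Ps and CB came from separate filters.

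The COP9 signalosome is a protein complex conserved from plants to mammals that controls the cullin-RING ubiquitin ligases. These ligases are switched on when the ubiquitin-like protein NEDD8 is attached to their cullin scaffold, and the signalosome removes NEDD8 again through the metalloprotease subunit CSN5, the product of *Cops5*. CSN6, from *Cops6*, is the inactive partner of CSN5, and the pair share the MPN domain. The other subunits (CSN1 from *Gps1*, CSN2 from *Cops2*, CSN3, CSN4, the alternative CSN7A and CSN7B, and CSN8) carry a PCI domain, by which the complex is assembled. CSN2 also contacts the cullin. The lid of the 26S proteasome and the translation initiation factor eIF3 are built from related PCI and MPN subunits.

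The libraries held 18660287 to 31260831 reads in the RNAs listed. Fibroblast markers were high throughout, 9 of 10 being present with a summed level of 26154 to 31744 CPM (reads scaled to a common library size) in CB and 19378 to 22737 CPM in Ps; *Thy1* was not in the table. Markers of other cell types were low: at most 20.4 CPM summed for 2 of 5 epithelial, 1.91 for 2 of 4 endothelial, 8.04 for 2 of 5 leukocyte and 12.8 for 1 of 4 neuronal markers. *Epcam*, *Krt18*, *Krt19*, *Kdr*, *Ptprc* and *Rbfox3* were not in the table. On the first principal component, which held 48.6% of the variance and parted Ps from CB, 2 cell-body libraries stood nearer to Ps than the rest of their groups. HBB CB replicate 4 lay at 23.4 against 39.8 to 47.5, and Pkp4 CB replicate 4 at 0.972 against 27.7 to 42.2. The counts of calls among the subunits, the enrichment of each subunit and the change of *Cops2* between the lines are given with and without both. The Ps over CB counts of the gene lists, the correlations and the levels below include them.

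Per length of transcript the signalosome mRNAs differed widely in level. In HBB CB, *Cops6* reached 81.2 ± 7.87 CPM per kb of exon (SD, n = 4) and *Cops7a* 81.0 ± 2.48, and these did not differ beyond their spread. *Gps1* followed at 67.2 ± 2.75, *Cops8* at 40.0 ± 2.05, *Cops4* at 33.2 ± 1.17, *Cops3* at 29.9 ± 1.39 and *Cops5* at 27.5 ± 1.12. The ranges of *Cops3* and *Cops4* lay side by side without overlap, and those of *Cops3* and *Cops5* overlapped. *Cops7b* was at 5.93 ± 0.172 and *Cops2* was lowest at 3.36 ± 0.307. In HBB Ps the order changed in its middle and at its end: *Cops4* reached 48.2 ± 2.55 and *Cops3* 44.4 ± 2.71 CPM per kb, above *Cops8* at 43.2 ± 3.26, whose range they shared in part. At the top *Cops6*, at 117 ± 8.09 CPM per kb, lay above *Cops7a*, at 89.9 ± 7.85, without overlap. *Cops2* reached 9.04 ± 0.193 CPM per kb in HBB Ps, above *Cops7b* at 6.0 ± 0.700. The lengths are those of the GENCODE M21 gene models on GRCm38, which may differ from the transcripts these cells use. In bulk RNA a level is an average, so that fewer cells with an mRNA and less of it per cell cannot be told apart.

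**Figure D1:**
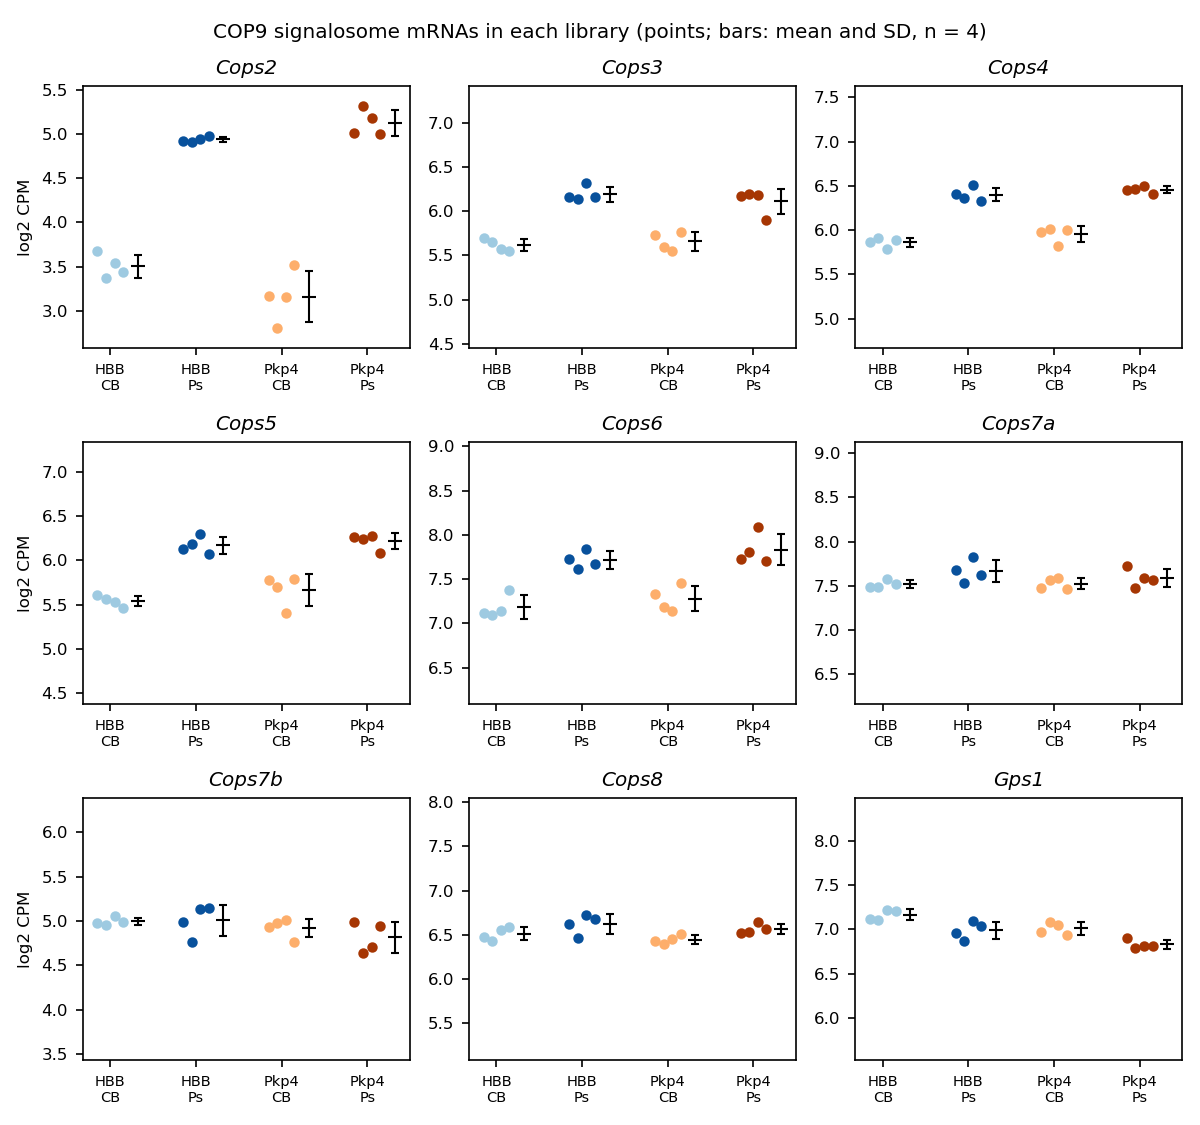
The log2 CPM of each of the 9 subunit mRNAs in each library, with 1 point per library, the 4 replicates in order, and the mean and SD (n = 4) beside them; every panel spans the same number of log2 units. *Cops2* sits between 2.81 and 3.67 in CB and between 4.91 and 5.31 in Ps, while *Gps1* is lower in Ps than in CB of both lines.

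Comparison of Ps with CB addresses which RNAs are enriched in protrusions. Of the subunits, *Cops2* had by far the most uneven distribution. Its enrichment was known when the subunits were chosen, so its values are given as a description with no test. *Cops2* (chr2:125830304-125859139, minus strand, GRCm38) was at 3.67, 3.37, 3.54 and 3.44 log2 CPM in HBB CB replicates 1 to 4 and at 4.92, 4.91, 4.95 and 4.98 in HBB Ps. It was at 3.17, 2.81, 3.15 and 3.51 in Pkp4 CB and at 5.01, 5.31, 5.17 and 5.00 in Pkp4 Ps. Every Ps library was more than 1 log2 unit above every CB library, and the counts behind these values ran from 185 to 730 reads per library. The log2(FC) of Ps over CB was 1.43 (SE 0.11), a 2.69-fold enrichment, in the HBB line and 1.96 (SE 0.11), or 3.90-fold, in the Pkp4 cUTR line. In the HBB line 145 of the 12900 RNAs had a higher log2(FC), and in the Pkp4 cUTR line 33 did. Without both replicate 4 cell-body libraries the log2(FC) of *Cops2* was 1.41 in the HBB line and 2.07 in the Pkp4 cUTR line.

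The other 8 subunits were tested across all 12900 RNAs with limma, with Benjamini-Hochberg adjustment. In the HBB line 4 of the 8 rose in Ps (*Cops3*, *Cops4*, *Cops5* and *Cops6*), 1 fell (*Gps1*) and 3 did not pass an adjusted p of 0.05 (*Cops7a*, *Cops7b* and *Cops8*). Of all RNAs, 28.3% passed in the upward direction and 28.9% in the downward one. In the Pkp4 cUTR line the calls again were *Cops3*, *Cops4*, *Cops5* and *Cops6* higher and *Gps1* lower, against 28.2% and 28.5% of all RNAs. The median log2(FC) of the 8 was 0.34 in the HBB line and 0.28 in the Pkp4 cUTR line, where the median of all RNAs was 0.01 in each. With reads scaled to each library's total, which moved the median of all RNAs to −0.23 and −0.25, the median of the 8 was 0.10 and 0.02. None of the 8 exceeded a 2-fold change, a size that 4.54% of all RNAs passed upward in the HBB line and 5.07% in the Pkp4 cUTR line, with an unadjusted p under 0.05. Judged by ranges alone, all 4 Ps libraries lay above all 4 CB libraries for 4 of the 8 in the HBB line (*Cops3* to *Cops6*, 25.5% of all RNAs). In the Pkp4 cUTR line this held for 5 of the 8 (these and *Cops8*, 22.6%). They lay below for 1, *Gps1*, in each line (26.8% and 22.2%). *Cops2* lay above in both lines but is not counted, as the set was chosen on its enrichment. The counts of calls among the 8 stayed at 4 higher and 1 lower in both lines without both replicate 4 cell-body libraries. The log2(FC) of *Cops3*, *Cops4*, *Cops5* and *Cops6* was then 0.55, 0.54, 0.60 and 0.60 in the HBB line and 0.48, 0.52, 0.59 and 0.61 in the Pkp4 cUTR line. That of *Cops7a*, *Cops7b*, *Cops8* and *Gps1* was 0.15, 0.01, 0.14 and −0.16 in the HBB line and 0.05, −0.15, 0.14 and −0.21 in the Pkp4 cUTR line. With total scaling *Cops3*, *Cops4*, *Cops5* and *Cops6* still passed, at 0.33, 0.30, 0.39 and 0.30 in the HBB line and at 0.19, 0.24, 0.28 and 0.29 in the Pkp4 cUTR line, as did *Gps1*, at −0.41 and −0.45.

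Both MPN subunits were among those that rose. *Cops5*, which encodes the NEDD8-cleaving protease (chr1:10024601-10038168), was at 5.61, 5.56, 5.54 and 5.46 log2 CPM in HBB CB and at 6.13, 6.19, 6.30 and 6.07 in HBB Ps. Levels of 5.78, 5.69, 5.41 and 5.79 were found in Pkp4 CB and of 6.26, 6.24, 6.27 and 6.08 in Pkp4 Ps. All Ps libraries lay above all CB libraries in both lines. The log2(FC) was 0.63 (SE 0.08, limma adjusted p = 4.77e-06), or 1.55-fold, in the HBB line and 0.55 (SE 0.08, adjusted p = 2.49e-05) in the Pkp4 cUTR line.

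*Cops6*, its inactive partner (chr5:138161071-138164646), was at 7.12, 7.09, 7.13 and 7.38 log2 CPM in HBB CB, 7.73, 7.61, 7.84 and 7.67 in HBB Ps, 7.33, 7.18, 7.14 and 7.46 in Pkp4 CB and 7.72, 7.81, 8.09 and 7.71 in Pkp4 Ps. The fractions did not overlap in either line, although the replicate 4 cell-body library was the highest of its group in each. The log2(FC) was 0.53 (SE 0.09, limma adjusted p = 0.000102) in the HBB line and 0.55 (SE 0.09, adjusted p = 7.99e-05) in the Pkp4 cUTR line.

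The log2 ratio of *Cops5* to *Cops6* in a library was −1.64 ± 0.19 (SD, n = 4) in HBB CB and −1.54 ± 0.08 in HBB Ps, and −1.61 ± 0.11 and −1.62 ± 0.15 in CB and Ps of the Pkp4 cUTR line. In none of the 4 comparisons between fractions or lines did this ratio differ beyond its spread (two-sided exact permutation tests over 70 relabellings, p from 0.400 to 0.971 before adjustment over the 8 ratio comparisons made). The smallest p that 4 against 4 libraries can give is 0.0286.

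Of the PCI subunits tested, *Cops3* and *Cops4* rose in both lines. *Cops3* (chr11:59817795-59839838) was at 5.70, 5.66, 5.58 and 5.55 log2 CPM in HBB CB and at 6.16, 6.13, 6.32 and 6.16 in HBB Ps. In the Pkp4 cUTR line it was at 5.74, 5.59, 5.55 and 5.77 in CB and at 6.17, 6.19, 6.19 and 5.90 in Ps. The fractions did not overlap in either line. The log2(FC) was 0.57 (SE 0.08, limma adjusted p = 6.66e-06) in the HBB line and 0.45 (SE 0.08, adjusted p = 9.10e-05) in the Pkp4 cUTR line.

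*Cops4* (chr5:100518309-100547803) was at 5.87, 5.91, 5.79 and 5.88 log2 CPM in HBB CB and at 6.41, 6.36, 6.50 and 6.33 in HBB Ps, and at 5.98, 6.01, 5.82 and 6.0 in Pkp4 CB and 6.45, 6.47, 6.50 and 6.41 in Pkp4 Ps. Every Ps library exceeded every CB library. The log2(FC) was 0.54 (SE 0.06, limma adjusted p = 1.12e-06) in the HBB line and 0.50 (SE 0.06, adjusted p = 2.96e-06) in the Pkp4 cUTR line.

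*Gps1*, the mRNA of CSN1 (chr11:120784272-120789102), went the other way. It was at 7.12, 7.11, 7.23 and 7.21 log2 CPM in HBB CB and at 6.96, 6.87, 7.09 and 7.04 in HBB Ps, and at 6.97, 7.09, 7.06 and 6.93 in Pkp4 CB and 6.90, 6.80, 6.81 and 6.82 in Pkp4 Ps. All Ps libraries were below all CB libraries of the same line, by a narrow margin. It fell by 0.17 on the log2 scale (SE 0.06, limma adjusted p = 0.0241) in the HBB line and by 0.18 (SE 0.06, adjusted p = 0.0204) in the Pkp4 cUTR line. This call was lost, at an adjusted p of 0.0552 to 0.0883, when HBB CB replicate 3 or 4 or HBB Ps replicate 1 or 2 was left out. In the Pkp4 cUTR line it was lost, at 0.0519 to 0.0689, without Pkp4 CB replicate 2 or 3 or Pkp4 Ps replicate 2, and with the libraries centred on their medians it was lost in both lines, at 0.0873 and 0.0815. *Gps1* has a processed pseudogene, *Gm9816*, with 99.8% identity over 1414 bases, which was listed with 6 to 32 reads per library against 1893 to 5043 for *Gps1*.

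*Cops8*, *Cops7a* and *Cops7b* did not pass in either line. *Cops8* (chr1:90602981-90613341) was at 6.48, 6.43, 6.56 and 6.59 log2 CPM in HBB CB and at 6.62, 6.47, 6.72 and 6.68 in HBB Ps, and at 6.43, 6.40, 6.45 and 6.51 in Pkp4 CB and 6.52, 6.53, 6.64 and 6.56 in Pkp4 Ps. The fractions overlapped in the HBB line and were parted by a narrow gap in the Pkp4 cUTR line, with a log2(FC) of 0.11 (SE 0.07, limma adjusted p = 0.156) and 0.12 (SE 0.07, adjusted p = 0.135).

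*Cops7a* (chr6:124958413-124965538) was at 7.49, 7.49, 7.58 and 7.52 log2 CPM in HBB CB, 7.68, 7.54, 7.83 and 7.62 in HBB Ps, 7.47, 7.57, 7.58 and 7.46 in Pkp4 CB and 7.72, 7.48, 7.59 and 7.57 in Pkp4 Ps. The fractions overlapped in both lines. Its log2(FC) was 0.15 (SE 0.07, limma adjusted p = 0.0810) in the HBB line and 0.07 (SE 0.07, adjusted p = 0.424) in the Pkp4 cUTR line, where total scaling turned it to a lower call at −0.20 (adjusted p = 0.0173). Without HBB Ps replicate 2, its lowest HBB Ps library, *Cops7a* passed with 0.19 (adjusted p = 0.0338) and *Cops8* with 0.16 (adjusted p = 0.0410), which made 6 of the 8 higher in the HBB line.

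*Cops7b* (chr1:86582904-86609375) was at 4.98, 4.96, 5.06 and 4.99 log2 CPM in HBB CB and at 4.98, 4.77, 5.13 and 5.14 in HBB Ps. In the Pkp4 cUTR line it was at 4.93, 4.98, 5.01 and 4.77 in CB and at 4.99, 4.64, 4.70 and 4.94 in Ps. The fractions overlapped in both lines, with a log2(FC) of 0.01 (SE 0.09, limma adjusted p = 0.945) in the HBB line and −0.10 (SE 0.09, adjusted p = 0.366) in the Pkp4 cUTR line, where it passed with total scaling at −0.37 (adjusted p = 0.00464).

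CSN7A and CSN7B occupy the same place in alternative forms of the complex. The log2 ratio of *Cops7b* to *Cops7a* was −2.52 ± 0.01 (SD, n = 4) in HBB CB and −2.66 ± 0.13 in HBB Ps, a difference of −0.14 (two-sided exact permutation test, p = 0.143). In the Pkp4 cUTR line it was −2.60 ± 0.07 in CB and −2.77 ± 0.11 in Ps, a difference of −0.17 (exact p = 0.0571). Between the lines' CB it differed by −0.08 with no overlap (exact p = 0.0286). With the lines' libraries paired by number, the exact sign-change p was 0.125, the smallest that 4 pairs can give, for the CB and also for the Ps, where the difference was −0.11. None of the relabelling tests passed adjustment over the 8 ratio comparisons, where the lowest adjusted p was 0.229.

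**Figure D2:**
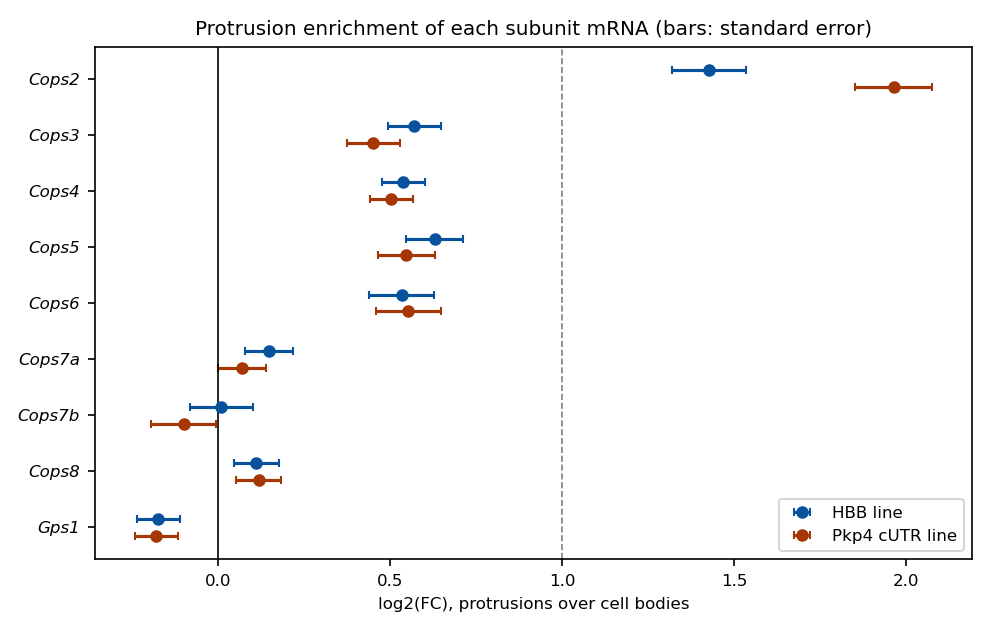
The log2(FC) of Ps over CB for each subunit mRNA in the HBB line (blue) and the Pkp4 cUTR line (brown), with the standard error of the fit as bars; the dashed line marks a 2-fold change. *Cops2* lies at 1.43 and 1.96, *Cops3* to *Cops6* lie between 0.45 and 0.63, and *Gps1* lies at −0.17 and −0.18.

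With these changes the make-up of the mRNA pool differed between the fractions. The summed level of the 9 mRNAs was 369 ± 10.3 CPM per kb (SD, n = 4) in HBB CB and 460 ± 29.2 in HBB Ps, and 371 ± 10.5 and 459 ± 23.2 in CB and Ps of the Pkp4 cUTR line. These levels rest on the library sizes behind the deposited values, and the sum was not taken with reads scaled to each library's total. With total scaling the median log2(FC) of the 8 subunits other than *Cops2* was 0.10 in the HBB line and 0.02 in the Pkp4 cUTR line. Without it these medians were 0.34 and 0.28. *Gps1* made up 18.2% ± 0.432 of the summed level in HBB CB and 12.9% ± 0.462 in HBB Ps. The share of *Cops6* was 22.0% ± 1.55 in HBB CB and 25.5% ± 0.289 in HBB Ps. *Cops2*, in spite of its enrichment, made up 0.911% ± 0.0895 in HBB CB and 1.97% ± 0.112 in HBB Ps, and 0.720% ± 0.130 and 2.25% ± 0.235 in CB and Ps of the Pkp4 cUTR line.

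A small ninth subunit of the complex, CSN9, is listed under its older symbol *Myeov2* and is no member of the set above. Its mRNA was at 6.40, 6.24, 6.39 and 6.68 log2 CPM in HBB CB and at 7.48, 7.36, 7.67 and 7.24 in HBB Ps, without overlap. The log2(FC) was 1.01 (SE 0.15, limma adjusted p = 1.41e-05), or 2.01-fold, in the HBB line and 0.96 (SE 0.15, adjusted p = 2.93e-05) in the Pkp4 cUTR line. Next to *Cops2* it was thus the mRNA of the complex with the largest enrichment in both lines.

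The log2(Diff FC), the log2(FC) of the Pkp4 cUTR line minus that of the HBB line, addresses whether the exogenous *Pkp4* UTR changes an RNA's enrichment. For *Cops2* it was 0.54 (SE 0.16), a 1.45-fold difference, which 396 of the 12900 RNAs exceeded; this value too is a description with no test, as it was known beforehand. Over all alternatives the log2(Diff FC) ran from 0.42, without Pkp4 CB replicate 2, to 0.66, without both replicate 4 cell-body libraries. The cell bodies held the larger part of the difference. *Cops2* was lower by 0.35 (SE 0.12) on the log2 scale in Pkp4 CB than in HBB CB, where the groups overlapped through Pkp4 CB replicate 4. Without Pkp4 CB replicate 2 it was lower there by 0.24, and without Pkp4 CB replicate 4 by 0.46. Without both replicate 4 cell-body libraries it was lower by 0.48. *Cops2* was higher by 0.18 (SE 0.10) in Pkp4 Ps than in HBB Ps. All 4 Pkp4 Ps libraries lay above those of the HBB line, as 6.31% of all RNAs did.

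Of the other 8 subunits none was called in log2(Diff FC). With limma none passed an adjusted p of 0.05, as none of all RNAs did (0%), and none had an unadjusted p under 0.05, which 2.33% of all RNAs had, or under 0.1, which 5.8% had. Their log2(Diff FC) ran from −0.12 (SE 0.11) for *Cops3* to 0.02 (SE 0.13) for *Cops6*, with a median of −0.06. *Cops5* was at −0.08 (SE 0.12), *Cops4* at −0.03 (SE 0.09), *Cops7a* at −0.08 (SE 0.10), *Cops7b* at −0.11 (SE 0.13), *Cops8* at 0.01 (SE 0.09) and *Gps1* at −0.01 (SE 0.09). The 95% intervals of these 8 differences all held 0 and differed in width, from −0.22 to 0.15 for *Cops4* to −0.26 to 0.30 for *Cops6*, with the lowest bound at −0.39 for *Cops7b*.

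The lines' CB and the lines' Ps were also compared directly. In CB, none of the 8 passed an adjusted p of 0.05 with limma, where 3.42% of all RNAs passed upward and 5.55% downward, and 1 of the 8 had an unadjusted p under 0.05, a share below the 22.9% of all RNAs. That was *Gps1*, whose 4 Pkp4 CB libraries all lay below the 4 HBB CB libraries, as 8.11% of all RNAs did; its log2 difference was −0.15 (SE 0.06, adjusted p = 0.143). In Ps, again none passed, against 2.89% upward and 4.26% downward of all RNAs, and 1 of the 8 had an unadjusted p under 0.05, where 22% of all RNAs did; this was *Gps1*, at −0.16 (SE 0.06, adjusted p = 0.139). *Cops7b* followed with −0.18 (SE 0.10, adjusted p = 0.265). The remaining 6 differed between the lines by −0.07 to 0.13 in CB and by −0.08 to 0.12 in Ps.

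The 5 RNAs whose log2 CPM over the 16 libraries was most like that of *Cops2*, out of the 10154 whose mean log2 CPM exceeded 1, were *Eif2s2* (Pearson r = 0.992), *Rabep1* (0.989), *Hsp90aa1* (0.987), *Cul3* (0.986) and *Naa15* (0.984). *Eif2s2* encodes a subunit of initiation factor eIF2, *Rabep1* an effector of Rab5, *Hsp90aa1* an HSP90 chaperone, *Cul3* a cullin and *Naa15* the auxiliary subunit of an N-terminal acetyltransferase. Their log2(FC) ran from 0.84 to 1.33 in the HBB line and from 1.15 to 1.80 in the Pkp4 cUTR line. The subunit most like *Cops2* was *Cops4*, in position 379 with r = 0.928, followed by *Cops3* (0.925), *Cops5* (0.908) and *Cops6* (0.896). *Gps1* had r = −0.65 and *Cops7b* −0.24. These correlations follow mostly from the contrast of Ps and CB, which the libraries share.

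Within groups, the subunits did not vary as one. Over the 36 pairs of subunits the correlation of the deviations from the group means over 16 libraries had a median of 0.15. The median over all pairs of the 10154 RNAs with a mean log2 CPM above 1 was 0.0042. Of the pairs of subunits, 10 had a correlation above 0.5 and 14 one below 0. How often pairs of other RNAs passed these bounds was not counted. One set of high values joined *Cops7a* and *Gps1* (0.83), *Cops7b* and *Gps1* (0.81) and *Cops7a* and *Cops7b* (0.74). Another joined *Cops3* and *Cops5* (0.82) and *Cops4* and *Cops5* (0.79). *Cops2* deviated against the first set, with −0.45 for *Cops7b*, −0.42 for *Gps1* and −0.36 for *Cops7a*. The points of each pair share their libraries and scaling.

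The subunit mRNAs also differed in base composition. The set was not chosen on it but on the enrichment of *Cops2*, which enters the values over the 9 subunits below. The *Cops2* transcript has 37.3% GC, and 0.693% of the 10962 RNAs with a coding transcript in the annotation have less. *Cops3*, *Cops5*, *Cops4* and *Cops6* have 45.0%, 46.1%, 48.0% and 49.6%, *Cops7b* 48.1% and *Cops8* 49.9%, and *Gps1* and *Cops7a* 55.8% and 56.9%, where the median of all is 50.9%. Over all 10962 RNAs, GC content and log2(FC) in the HBB line had a Spearman rho of −0.40. Over the 9 subunits it was −0.82 and over the 8 without *Cops2* −0.74, and in the Pkp4 cUTR line these 3 values were −0.39, −0.67 and −0.52. These are descriptions across RNAs, which are not independent replicates. For the length of the 3′UTR the rho in the HBB line was −0.09 over all RNAs, −0.03 over the 9 and −0.31 over the 8, and −0.09, 0.23 and 0.07 in the Pkp4 cUTR line. For transcript length it was −0.26, −0.28 and −0.67 in the HBB line and −0.23, −0.05 and −0.33 in the Pkp4 cUTR line. *Cops2* has a 3′UTR of 1889 bases and *Cops7b*, with a log2(FC) of 0.01, one of 4159 bases, against a median of 919. The part of base composition and length in the differences was not tested.

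**Figure D3:**
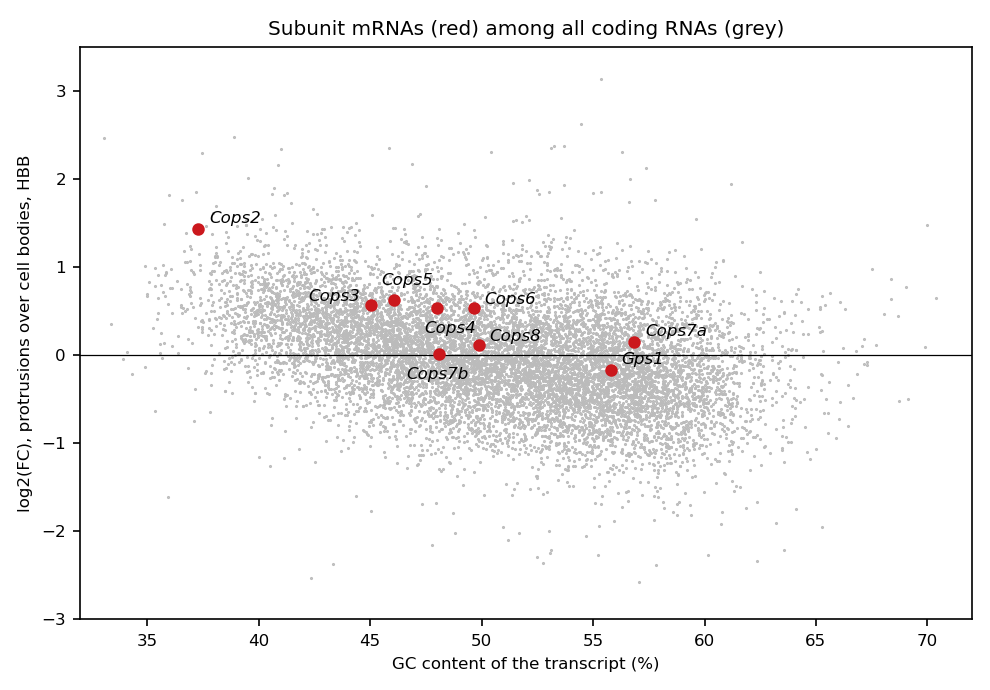
The log2(FC) of Ps over CB in the HBB line against the GC content of the transcript, for 10954 coding RNAs (grey; another 8 lie outside the axes) and the 9 subunits (red). *Cops2* lies at the low-GC edge, with 37.3% GC and a log2(FC) of 1.43, and *Gps1* and *Cops7a* at 55.8% and 56.9% lie near 0.

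The proteasome lid and eIF3, built from related subunits, are set beside the signalosome. Counts of the lists below were also taken with reads scaled to each library's total, where the share of all RNAs that passed was 15.04% upward and 43.5% downward in the HBB line and 13.9% and 45.5% in the Pkp4 cUTR line. Without that scaling these shares were 28.3% and 28.9%, and 28.2% and 28.5%. Of the 9 lid mRNAs 5 rose and none fell in the HBB line, with a median log2(FC) of 0.29, and the counts and the median were the same in the Pkp4 cUTR line; with total scaling 3 rose and 1 fell in the first (median 0.06) and 2 rose and 2 fell in the second (median 0.03). *Shfm1*, the smallest lid subunit, had 0.82 (SE 0.13, limma adjusted p = 3.47e-05) in the HBB line. *Psmd14*, the deubiquitinating MPN subunit and counterpart of *Cops5*, had 0.57 (SE 0.08, adjusted p = 1.34e-05), beside the 0.63 of *Cops5*. *Psmd6*, the counterpart of *Gps1*, rose by 0.50 (SE 0.10, adjusted p = 0.000387), where *Gps1* fell. *Psmd11*, the counterpart of *Cops2*, had 0.15 (SE 0.08, adjusted p = 0.134) against the 1.43 of *Cops2*. *Psmd3*, the counterpart of *Cops3*, had −0.08 (SE 0.07, adjusted p = 0.348) in the HBB line, where *Cops3* rose. *Psmd7*, the counterpart of *Cops6*, had 0.08 (SE 0.07, adjusted p = 0.389), where *Cops6* rose. *Psmd8*, the counterpart of *Cops8*, rose by 0.29 (SE 0.06, adjusted p = 0.000822), where *Cops8* did not pass. *Psmd13*, the counterpart of *Cops7a* and *Cops7b*, had 0.14 (SE 0.08, adjusted p = 0.155). *Psmd12*, the counterpart of *Cops4*, rose by 0.38 (SE 0.10, adjusted p = 0.00304) in the HBB line and by 0.47 (SE 0.10, adjusted p = 0.000543) in the Pkp4 cUTR line. *Psmd6* was also higher in Pkp4 CB than in HBB CB, by 0.43 (SE 0.10, adjusted p = 0.010), but with both replicate 4 cell-body libraries left out no lid mRNA passed between the CB.

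All 8 eIF3 mRNAs with PCI or MPN domains rose in Ps of each line (7 with total scaling), with a median log2(FC) of 0.78 in both. *Eif3a*, the largest subunit, had 1.43 (SE 0.11, limma adjusted p = 1.14e-08) in the HBB line, where *Cops2* also had 1.43, and 1.54 (SE 0.11, adjusted p = 1.05e-08) in the Pkp4 cUTR line. *Eif3e* had 1.39 (SE 0.11, adjusted p = 1.49e-08) and *Eif3m* 1.17 (SE 0.10, adjusted p = 3.98e-08) in the HBB line. *Eif3c* was higher in Pkp4 CB than in HBB CB by 0.30 (SE 0.06, adjusted p = 0.00617), and 1 eIF3 mRNA again passed there without both replicate 4 cell-body libraries.

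Of the cullins and the enzymes of their neddylation, the targets and opponents of the signalosome, 23 of 24 were in the table (*Cul9* was not). In the HBB line 16 rose and 2 fell, with a median log2(FC) of 0.61, and in the Pkp4 cUTR line 17 rose and 4 fell, with a median of 0.51; with total scaling 11 rose and 6 fell in each, with medians of 0.36 and 0.25. *Dcun1d1*, a NEDD8 ligase subunit, had 1.25 (SE 0.17, limma adjusted p = 5.75e-06) and *Glmn*, which binds the cullin partner RBX1, 1.00 (SE 0.21, adjusted p = 0.000622) in the HBB line. *Cul2*, the scaffold of the VHL ligases, had 0.98 (SE 0.14, adjusted p = 9.38e-06). *Cul3*, the scaffold of the BTB ligases, had 1.32 (SE 0.10, adjusted p = 2.43e-08) in the Pkp4 cUTR line. Among those that fell in the HBB line were *Cand2*, a cullin exchange factor, at −0.55 (SE 0.11, adjusted p = 0.000459) and *Cul7* at −0.39 (SE 0.07, adjusted p = 0.000211). *Cul4a* at −0.27 (SE 0.10, adjusted p = 0.0236) and *Dcun1d2* at −0.32 (SE 0.11, adjusted p = 0.0204) fell in the Pkp4 cUTR line.

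The 20 adaptors and substrate receptors were divided, with 9 up and 5 down in the HBB line (median 0.16) and 9 up and 7 down in the Pkp4 cUTR line (median 0.06), but with total scaling 5 were up and 9 down in the first (median −0.08) and 6 up and 10 down in the second (median −0.20). The downward shares, 5 of 20 and with total scaling 9 of 20 in the HBB line, lay near those of all RNAs, 28.9% and 43.5%. *Klhl12*, a BTB-Kelch receptor of *Cul3* ligases, had 1.61 (SE 0.12, limma adjusted p = 9.02e-09) in the HBB line, more than *Cops2*, and 1.09 (SE 0.12, adjusted p = 7.36e-07) in the Pkp4 cUTR line. *Tceb1* and *Tceb2*, which encode elongins C and B, had 1.13 (SE 0.13, adjusted p = 8.71e-07) and 0.79 (SE 0.12, adjusted p = 1.92e-05) in the HBB line. *Skp2*, an F-box protein, fell by 0.55 (SE 0.17, adjusted p = 0.0115), *Ddb2* by 0.40 (SE 0.14, adjusted p = 0.0189) and *Det1* by 0.28 (SE 0.08, adjusted p = 0.00812) in the HBB line. *Dcaf7* and *Fbxw11* fell by 0.41 (SE 0.11, adjusted p = 0.00430) and 0.27 (SE 0.11, adjusted p = 0.0464) in the Pkp4 cUTR line.

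Of 11 proteins known to bind or act with the signalosome, *Myeov2* included, the mRNAs of 5 rose and 2 fell in the HBB line and of 6 rose and 4 fell in the Pkp4 cUTR line, but with total scaling 3 rose and 5 fell in each, where 43.5% and 45.5% of all RNAs fell. *Usp15*, a deubiquitinase associated with the complex, had 0.98 (SE 0.12, limma adjusted p = 1.52e-06) in the HBB line and 1.55 (SE 0.12, adjusted p = 2.44e-08) in the Pkp4 cUTR line. *Mif*, a cytokine that binds CSN5, had 0.58 (SE 0.11, adjusted p = 0.000148) in the HBB line. The transcription factor *Jun*, long known as a CSN5 partner, had −0.53 (SE 0.08, adjusted p = 3.15e-05) and *Cdkn1b*, the p27 cell cycle inhibitor, −0.43 (SE 0.09, adjusted p = 0.000668) there. *Trp53* fell by 0.30 (SE 0.09, adjusted p = 0.00717) in the Pkp4 cUTR line. *Itpk1*, an inositol phosphate kinase that binds CSN1, was the partner whose level differed between the lines' CB, lower by 0.53 (SE 0.08, adjusted p = 0.000265) in Pkp4 CB; without both replicate 4 cell-body libraries 1 partner again passed as lower.

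In log2(Diff FC), none of the 71 mRNAs of these 5 lists passed adjustment with limma, and 6, or 8.45%, had an unadjusted p under 0.1, against 5.8% of all RNAs. They were *Usp15* at 0.57 (SE 0.17), the cullins *Cul3* at 0.35 (SE 0.14) and *Cul5* at 0.29 (SE 0.16), the F-box gene *Fbxw7* at 0.37 (SE 0.19), *Klhl12* at −0.52 (SE 0.17) and *Cdkn1b* at −0.32 (SE 0.13). The 0.54 of *Cops2* lay next to that of *Usp15*.

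**Figure D4:**
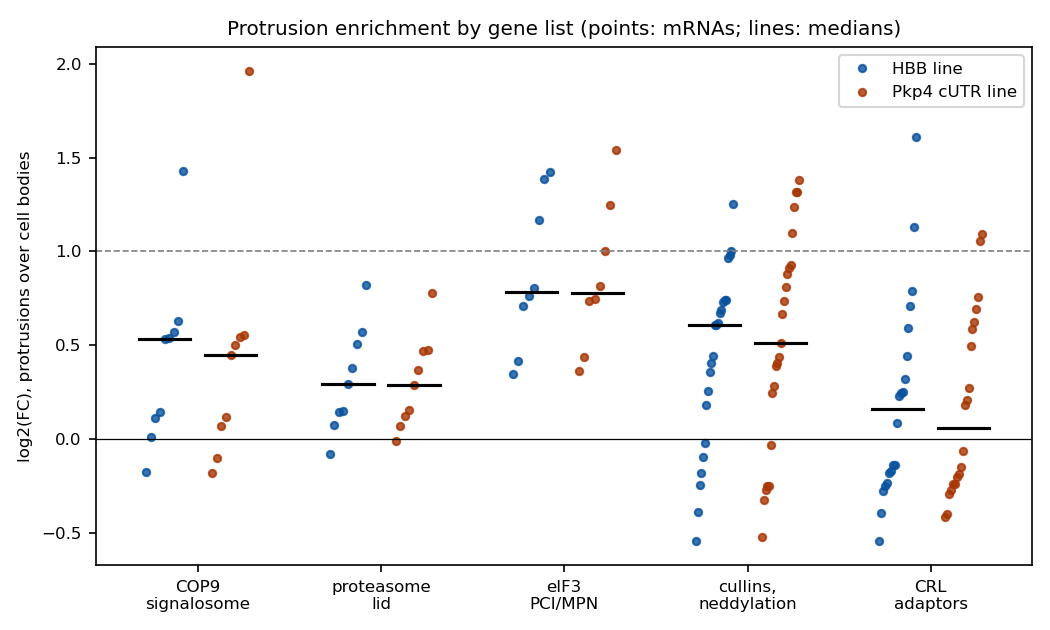
The log2(FC) of Ps over CB for each mRNA (points) of the signalosome, the proteasome lid, eIF3, the cullins with their neddylation enzymes and the ligase adaptors, in the HBB line (blue) and the Pkp4 cUTR line (brown), with black lines at the medians and a dashed line at 2-fold. *Cops2* stands alone above the other 8 subunits, while all 8 eIF3 mRNAs lie above 0.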

How the data were processed

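RNA was measured by sequencing in 4 groups of 4 libraries. Reads were mapped by the authors with STAR 2.4.2a (mm10) and counted per gene, and the values they deposited are log2 CPM made with limma, for RNAs above a log2 CPM of 0.5 in at least 1 library; the strand setting of the counting and the scaling method are not given in the sources used here. The column of each library kept its effective library size, so that whole reads were recovered (100% of the values within 0.01 of a whole number). These reads were fitted with limma 3.58.1 (voom weights, 1 mean per group, all 16 libraries, adjustment over 12900 RNAs) in R 4.3.3. A library's floor of 3 reads is 0.0890 to 0.176 CPM, which covers counting error only. Ratios were tested by exact relabelling in Python 3.11.15, and rank correlations were computed with scipy 1.17.1. Gene models were those of GENCODE M21 and shared stretches were sought with BLAST 2.17.0. The fit was also run on simulated reads with the same dispersion for all RNAs and no shared deviation of libraries. That run cannot show how the fit handles libraries that deviate together or stand apart. The replicates are described as independent, and p-values measure the spread between them.

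The subunits and the gene lists were chosen with earlier results of these data known. Beside the 9 subunits the text names, of each list, up to 3 RNAs in each direction with the largest change among those with an adjusted p under 0.05, the RNAs of the lists with an unadjusted p under 0.1 in log2(Diff FC), the 5 RNAs most like *Cops2*, and the lid counterparts of subunits, which were added later. Same-numbered libraries of the lines deviated together in CB (mean r 0.483, lowest 0.331) and in Ps (0.316, lowest 0.196), so that the numbers pair the lines. Same-numbered Ps and CB deviated together only weakly in the HBB line (mean 0.178, lowest 0.0455, against a mean of −0.0621 for other numbers). In the Pkp4 cUTR line they did not (mean −0.161, lowest −0.362). Alternatives were other weights, scalings, pseudocounts and filters, replicate blocks, and leaving out each library. The annotated spans of *Cops2*, *Cops3*, *Cops5*, *Cops6* and *Cops7a*, introns included, overlap genes on the opposite strand by 31 to 697 bases. Where exons lie in these stretches, which was not checked, reads could be shared if strand was not used.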

Additional observations from a re-analysis of the deposited data

Results flagged for a closer look

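Of the 36 groups of 4 libraries (9 subunits in 4 groups), 5 held a library far from the other 3 by Dixon's test at the 95% level, where chance alone gives about 1 in 20. *Cops3* was at 6.32 log2 CPM in HBB Ps replicate 3 against 6.13 to 6.16 in the others. *Cops3* was at 5.90 in Pkp4 Ps replicate 4 against 6.17 to 6.19. *Cops5* was low in that same library, at 6.08 against 6.24 to 6.27. *Cops4* was at 5.82 in Pkp4 CB replicate 3 against 5.98 to 6.01. *Cops6* was at 7.38 in HBB CB replicate 4, a library that also stood apart on the first principal component, against 7.09 to 7.13.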

How the results depend on the processing

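The 4 higher calls among the 8 subunits were kept in number or exceeded under every alternative (4 to 6 in the HBB line, 4 to 5 in the Pkp4 cUTR line), and no subunit passed in log2(Diff FC) or between the lines under any. The count of lower calls was 0 with median centring in both lines, 3 in the Pkp4 cUTR line with reads scaled to each library's total, and 0 to 1 with single libraries left out in each line. Scaling to totals moved the median log2(FC) of all RNAs to −0.23 in the HBB line and −0.25 in the Pkp4 cUTR line, with 1940 RNAs higher and 5614 lower in the first and 1797 and 5867 in the second, against 3655 and 3734, and 3633 and 3679; *Cops2* then had 1.19 and 1.70. By that scaling the log2(FC) changed sign to −0.091 for *Cops7a*, −0.23 for *Cops7b* and −0.13 for *Cops8* in the HBB line and to −0.20 for *Cops7a* and −0.15 for *Cops8* in the Pkp4 cUTR line, where *Cops7a* then passed as lower, as did *Cops7b* at −0.37 and *Gps1* at −0.45. The other changes of sign were in values near 0 that were not called. In log2(Diff FC), scaling to totals gave −0.0069 for *Cops6* and −0.021 for *Cops8*, quantile normalization −0.016 for *Cops6*, and single libraries left out gave −0.066 to 0.080 for *Cops6*, −0.046 to 0.039 for *Cops8* and −0.047 to 0.026 for *Gps1*. Between the CB, *Cops7a* had −0.013 with totals, −0.016 with median centring and −0.018 to 0.022 with a library left out, and *Cops3* −0.016 without both replicate 4 libraries. *Cops7b* in the HBB line ran from −0.038 to 0.088 with a library left out. The *Cops5* to *Cops6* ratio ran from −0.059 to 0.059 in Ps over CB of the Pkp4 cUTR line and from −0.062 to 0.074 between the CB, with −0.043 without both replicate 4 libraries. The cause was not tested. The replicate blocks changed none of these counts. With quantile normalization *Cops7a* and *Cops8* passed in the HBB line (0.16 and 0.17) and *Cops8* in the Pkp4 cUTR line (0.19).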
